A study of Mus musculus with 48 samples.

Results

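The genes described here are 25 genes of GABA synthesis, vesicle loading, reuptake, breakdown, reception, chloride balance and receptor anchoring, chosen by name from the 23284 genes of a count table. They were followed in female mice, in RNA bound to tagged ribosomes of gonadotropin-releasing hormone (GnRH) neurons and in the RNA left behind by that capture. The labels give the genotype as GnRH-Cre crossed with a floxed L10a-GFP allele, so that the ribosomal protein L10a carries green fluorescent protein only in cells in which the GnRH-driven Cre has acted. Each library is either the immunoprecipitate (IP) of preoptic area punches or the GnRH-depleted supernatant of such punches. The study asked which transcripts belong to GnRH neurons and whether prenatal androgen alters them at either age.

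All mice of the 8 groups carried both alleles. The prenatal treatment was vehicle or dihydrotestosterone (DHT), an androgen that is no substrate for aromatase, and the mice were young (prepubertal in the design text) or adult and in diestrus. Of the 8 groups of fraction, age and treatment, 6 held 6 libraries and the 2 adult vehicle groups held 5, which makes 46 libraries. The remaining 2 libraries, an IP and a supernatant of young mice with the floxed L10a-GFP allele and no Cre, had no prenatal treatment label other than that they lack the tag. Replicates are called biological in the labels, with no word on how many animals gave a library, and p-values therefore cover only the spread between these libraries. The protocol text names female mice and in the same line tissue of both sexes.

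GABA is made from glutamate by the glutamic acid decarboxylases, loaded into vesicles by the vesicular transporter, and cleared from the cleft by plasma membrane transporters before it is broken down in mitochondria. It opens GABA-A receptors, chloride channels assembled from subunits of several families, and acts on GABA-B receptors, which are coupled to G proteins. GnRH neurons receive much of their fast input from GABA neurons, and since chloride carriers set the direction of chloride flow through the GABA-A receptor, GABA can excite these cells.

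Depth was similar in both fractions: the 23 IP libraries totalled 28672556 to 47054029 counts each, and the 23 supernatant libraries 28136000 to 55479451. All 5 GnRH neuron markers were higher in the IP. Gnrh1 itself ran from a median of 26.7 CPM (the count scaled to the library total) in young vehicle supernatant to 6065 CPM in adult vehicle IP, and stood at 61.6 CPM in the IP without Cre. Glial transcripts were also present. Astrocyte markers summed to a median of 501 CPM in young vehicle IP against 575 CPM in its supernatant, and oligodendrocyte markers to 4281 against 5385 CPM. Without Cre the sums were 483 and 469 CPM for astrocytes and 5357 and 6211 CPM for oligodendrocytes. No marker of either cell type was at 0 in any library. The median coefficient of variation of the 25 genes within a group was 30.1% to 39.3% in the IP and 11.1% to 22.8% in the supernatant.

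Between the fractions the smallest adjusted p of the 25 genes was that of the vesicular GABA transporter gene Slc32a1, on chromosome 2 of GRCm38 from 158610767 to 158615748 on the plus strand. Just upstream starts Gm14204, a long noncoding gene on the opposite strand (158595472 to 158610723), with 43 bases between the 2 annotated starts. Because these neighbours moved in opposite directions between the fractions, the 250 bases before the RefSeq start of Slc32a1 are shown, at chr2:158610508-158610757 (plus strand, GRCm38.p6). Capitals mark the 196 bases that lie in exons of Gm14204, and 0 of the bases lie in exons of Slc32a1.

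Slc32a1 upstream region: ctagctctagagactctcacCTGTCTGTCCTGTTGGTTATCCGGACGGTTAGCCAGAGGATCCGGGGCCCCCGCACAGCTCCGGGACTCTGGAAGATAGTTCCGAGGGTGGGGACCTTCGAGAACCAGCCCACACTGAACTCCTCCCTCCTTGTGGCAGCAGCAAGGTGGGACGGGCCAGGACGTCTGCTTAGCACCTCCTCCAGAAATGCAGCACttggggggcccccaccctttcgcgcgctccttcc

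The Slc32a1 level ran from 5.14 to 42.0 CPM (median 11.8) over the IP and from 40.6 to 82.7 CPM (median 64.0) over the supernatant, overlapping only across conditions. In each of the 4 conditions every IP library lay below every supernatant library, as did 8.24% (vehicle) and 7.82% (DHT) of all genes in young mice and 11.9% (vehicle) and 7.65% (DHT) in adult mice. The difference was 4.34-fold lower in the IP (log2 fold change -2.12 ± 0.13 SE, edgeR adjusted p = 6.59e-18). Gm14204, named for its position, was 0.93 ± 0.10 higher on the log2 scale (edgeR adjusted p = 2.18e-10), with medians of 59.2 CPM in young vehicle IP and 27.6 CPM in its supernatant. The pair without Cre showed both differences, with Slc32a1 at 10.9 against 43.3 CPM and Gm14204 at 51.6 against 24.996 CPM. Of the exon length of Slc32a1, 24.9% is shared with another opposite-strand gene, Gm14205, and the library kit does not mark strand, so reads from that stretch cannot be told apart.

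The decarboxylases differed less between the fractions than the transporter did. Gad1 ran from 379 to 1887 CPM (median 840) in the IP and from 384 to 981 CPM (median 783) in the supernatant, so that the fractions overlapped while the highest libraries were IP. It was 1.27-fold higher in the IP (log2 0.35 ± 0.09, edgeR adjusted p = 0.00104). By condition the log2 value in young mice was 0.0063 (vehicle) and 0.22 (DHT), and in adult mice 0.54 (vehicle) and 0.63 (DHT). The difference between the ages was not called (0.47 ± 0.18, edgeR adjusted p = 0.129). Gad2 had an IP median of 362 CPM and a supernatant median of 519 CPM and was not called (-0.22 ± 0.10, edgeR adjusted p = 0.0676). Other settings did call Gad2 lower: the replicate block (-0.26, edgeR adjusted p = 0.00897), DESeq2 (-0.23, adjusted p = 0.0478), limma-voom (-0.29, adjusted p = 0.0226), the filter of 1 CPM (-0.24, edgeR adjusted p = 0.0474) and leaving out the last 10 sample numbers (-0.33, edgeR adjusted p = 0.0234). So did 7 of the 46 fits without 1 library, namely adult vehicle IP replicates 1 and 2, adult DHT IP replicates 2 and 4, adult vehicle supernatant replicates 4 and 5, and young DHT supernatant replicate 4. Adult vehicle IP replicate 2 moved it most, to -0.35 (edgeR adjusted p = 0.00178).

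Per kilobase of exon, the Gad1 level was 1.56 to 1.85 times the Gad2 level in the IP (range of the 4 group medians) and 1.11 to 1.19 times in the supernatant. The same ratio without Cre was 1.61 in the IP and 1.15 in the supernatant. Slc32a1 per Gad1, on that scale, had group medians of 0.0324 to 0.0663 in the IP and 0.199 to 0.288 in the supernatant. Relative to the enzyme that makes GABA, the transporter that loads it into vesicles was thus several times scarcer in the IP. Without Cre that ratio was 0.0366 in the IP and 0.137 in the supernatant.

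Among the genes of reuptake, breakdown and precursor supply, 4 of 5 were lower in the IP and 0 were higher, where 21.7% of all 16660 genes tested were called lower and 24.4% higher. Slc6a11, a plasma membrane GABA transporter known from astrocytes, was 1.97-fold lower (-0.98 ± 0.15, edgeR adjusted p = 7.98e-07), with an IP median of 19.8 CPM and a supernatant median of 43.9 CPM. Aldh5a1, which encodes succinic semialdehyde dehydrogenase, the last step of GABA breakdown, was 1.497-fold lower (-0.58 ± 0.09, edgeR adjusted p = 8.98e-07), with medians of 30.4 and 47.5 CPM. It shares 17.7% of its exon length with an opposite-strand gene.

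Abat, the GABA transaminase gene, was lower by a smaller amount (-0.28 ± 0.11, edgeR adjusted p = 0.0269, and 0.0501 with no filter on low counts), as was Slc38a1, a carrier of the precursor glutamine (-0.22 ± 0.07, edgeR adjusted p = 0.00877). Slc6a13, a GABA transporter known from the leptomeninges, ranged from 0.0262 to 42.1 CPM in the IP and from 1.21 to 47.2 CPM in the supernatant and was not called (-0.68 ± 0.51). Its highest IP and supernatant libraries were both replicate 4 of the adult DHT mice. Without that IP library the value was -1.20 (edgeR adjusted p = 0.0388), and without that supernatant library -0.19. The block gave -1.41 for it (edgeR adjusted p = 0.0154). Astrocyte markers moved with this group: 6 of 8 were lower in the IP and 0 higher, with a median of -0.54. Their part in the result was not tested.

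Of the 11 GABA-A subunit genes, 1 was higher in the IP, 2 were lower and 8 were not called. Gabre, the epsilon subunit gene, had the largest difference of the 25 genes, 5.39-fold lower (-2.43 ± 0.24, edgeR adjusted p = 8.35e-12). It ran from 0.154 to 4.72 CPM in the IP and from 2.24 to 9.08 CPM in the supernatant, and within conditions the fractions overlapped only in adult DHT mice. Gabra5, an alpha subunit known from extrasynaptic receptors, was higher (0.22 ± 0.08, edgeR adjusted p = 0.0212), with medians of 45.1 and 40.9 CPM and overlapping libraries. Its call was lost in 8 of the 46 fits that left out 1 library (adult vehicle supernatant replicates 1, 3, 4 and 5, adult vehicle IP replicates 2, 3 and 5, and young DHT IP replicate 6), with values down to 0.16 and adjusted p up to 0.103. By condition it was 0.54 in young vehicle and -0.10 in adult vehicle mice.

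Gabrb2, a beta subunit, was lower (-0.23 ± 0.09, edgeR adjusted p = 0.0321), with medians of 61.9 and 79.3 CPM. That call was lost without young DHT supernatant replicate 3, young vehicle IP replicate 4 or young vehicle supernatant replicate 6 (adjusted p up to 0.0603), and with no filter on low counts (edgeR adjusted p = 0.0617). The other alpha subunits Gabra2 (-0.19), Gabra3 (-0.013) and Gabra4 (0.032), the beta subunit Gabrb1 (0.035), the gamma subunits Gabrg1 (-0.17) and Gabrg3 (-0.24), the delta subunit Gabrd (-0.33) and the theta subunit Gabrq (-0.26) did not pass the test. The block called Gabra2 lower (-0.28, edgeR adjusted p = 0.0352). Lower by limma-voom were Gabrg3 (-0.73, adjusted p = 0.00782), Gabrd (-1.32, adjusted p = 0.0218) and Gabrq (-0.70, adjusted p = 0.0260). The log2 values of Gabra3, Gabra4 and Gabrb1 changed sign in other settings.

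The GABA-B receptor works as a pair of subunits, of which edgeR called 1 lower in the IP. Gabbr1, the subunit that binds GABA, ran from 83.1 to 162 CPM (median 120) in the IP and from 162 to 262 CPM (median 224) in the supernatant. Within each condition the fractions did not overlap, and it was 1.78-fold lower in the IP (-0.84 ± 0.06, edgeR adjusted p = 4.58e-16). Gabbr2, the subunit that couples to the G protein, was not called (-0.18 ± 0.14), at medians of 32.3 and 36.4 CPM. By limma-voom Gabbr2 was called lower too (-0.31, adjusted p = 0.0409).

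The chloride exporter gene Slc12a5 was 1.64-fold lower in the IP (-0.71 ± 0.09, edgeR adjusted p = 6.32e-09), with medians of 97.1 and 178 CPM. The importer gene Slc12a2 had medians of 19.4 and 26.3 CPM and was not called (-0.23 ± 0.25). By limma-voom Slc12a2 was called lower (-0.73, adjusted p = 0.00851). Its IP libraries spread from 0.170 to 72.7 CPM. Of the anchoring genes, Nlgn2, an adhesion molecule of inhibitory synapses, was lower (-0.41 ± 0.12, edgeR adjusted p = 0.00404), and Gphn, the scaffold gephyrin, was not called (0.020 ± 0.09, with either sign in other settings).

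In all, 2 of the 25 genes were higher in the IP and 10 were lower, beside the shares of all genes given above. Adult vehicle IP replicate 2 moved the median over the 25 most, from -0.23 to -0.39 without it. Over all conditions the libraries of the fractions overlapped for each of the 25, where 0.228% of all genes lay entirely higher and 1.25% entirely lower in the IP. The median log2 fold change was -0.23 over the 25 genes and -0.0032 over all genes. A test with sample weights (limma-voom) moved the median of all genes to -0.22 and the block moved it to -0.21. That shift was close in size to the median of the 25 as first fitted. In these settings the median of the 25 moved as well, to -0.36 (limma-voom) and -0.32 (block), with 2 of 25 above 0 in each. The share of higher among all calls was 52.9% in edgeR, 36.5% in limma-voom and 37.6% with the block. Of 34 further GABA pathway genes tested, 6 were higher and 13 lower. They included the receptor trafficking gene Gabarapl2 (0.86) and Kctd8, an auxiliary GABA-B subunit (0.64), both higher, and Ubqln1 (-0.57) and Trak1 (-0.59), both lower. Transcription factors of GABA neurons moved with these genes: 4 of 7 were lower in the IP and 1 higher, with a median of -0.35. Their summed medians, IP against supernatant, were 510 against 602 CPM (vehicle) and 505 against 549 CPM (DHT) in young mice, 361 against 514 CPM (vehicle) and 410 against 547 CPM (DHT) in adult mice, and 680 against 632 CPM without Cre. Their part in the result was not tested. In bulk samples, fewer cells of a type and less RNA per cell cannot be told apart.

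**Figure D1:**
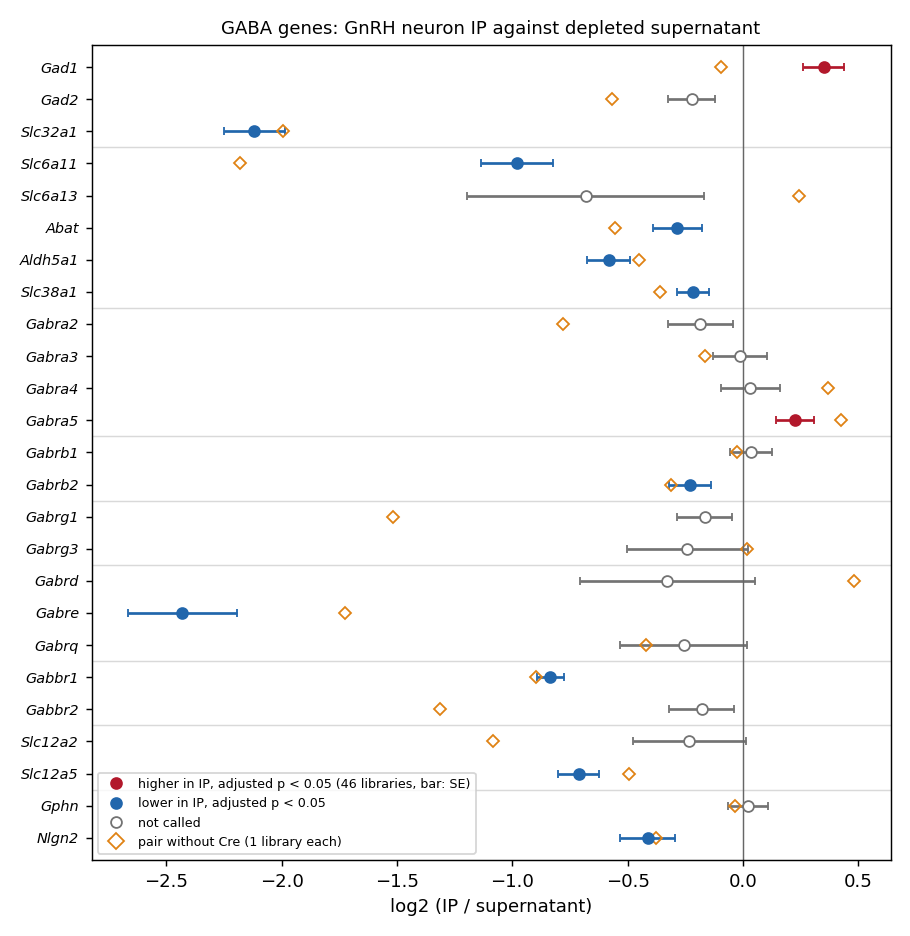
Log2 ratio of IP to supernatant for each of the 25 genes, grouped by role, in 46 libraries (circles, bars are SE, filled where the edgeR adjusted p is below 0.05) and in the single pair of libraries without Cre (diamonds). Slc32a1 and Gabre stand far to the left at -2.12 and -2.43, and the pair without Cre lies at -1.99 and -1.73 for them.

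The pair of libraries without Cre gave the background of the capture, with 1 library on each side and therefore no test. There 20 of the 25 genes were lower in the IP than in the supernatant and 5 higher, with a median log2 ratio of -0.42, beside 0.056 over all genes. The median over the same genes in young vehicle mice was also -0.42. The counting interval (95%, counting error only) lay below 0 for 18 of the genes and above 0 for 3. Slc32a1 was at -1.99 there (-2.16 to -1.83) and Gabbr1 at -0.90, beside -2.47 and -0.94 in young vehicle mice. Slc6a11 at -2.18, Gabrg1 at -1.52 and Gabbr2 at -1.31 were further below 0 than in young vehicle mice, where they stood at -0.97, -0.42 and -0.38. Gad1 was at -0.093 without Cre and at 0.0063 in young vehicle mice. Gabre was at -1.73 without Cre and -3.62 in young vehicle mice. What part of each difference comes from capture without the tag was not tested.

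**Figure D2:**
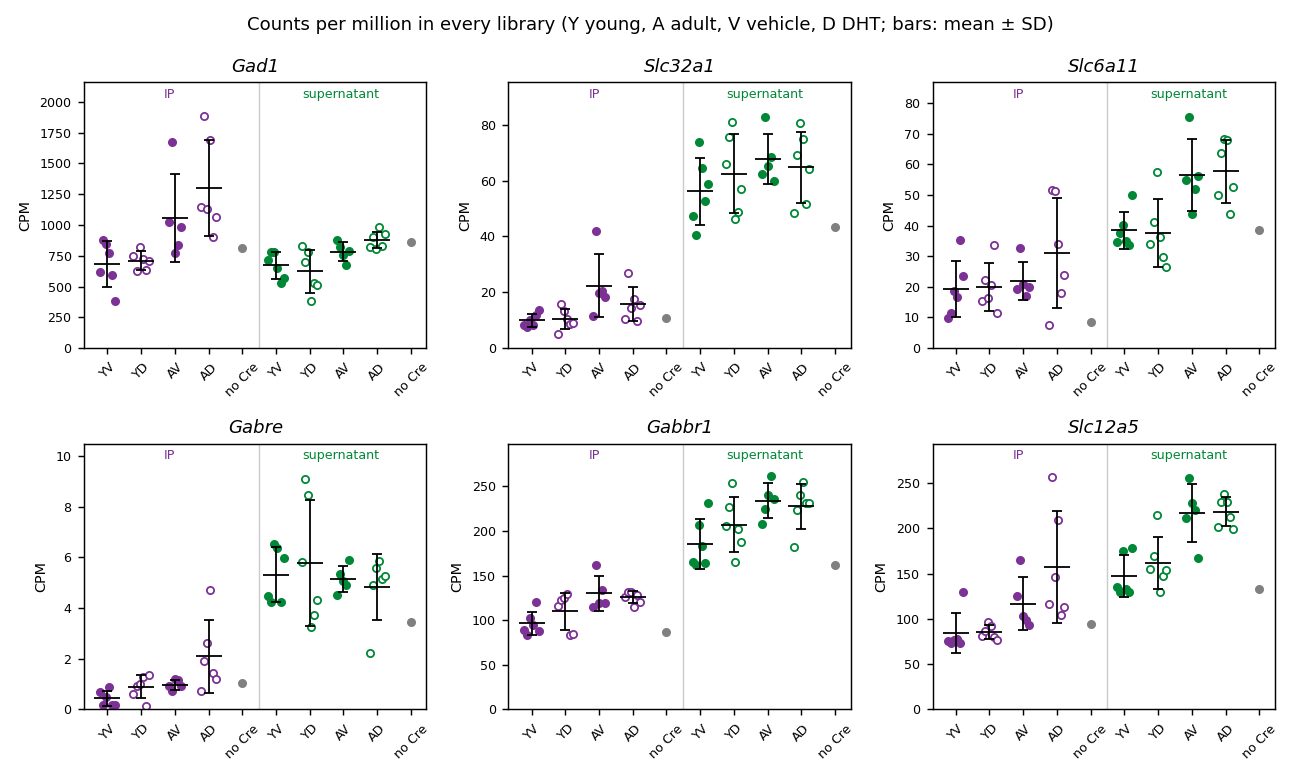
CPM of 6 GABA genes in each library, by group (filled for vehicle, open for DHT, grey for the pair without Cre, black bars mean ± SD). Slc32a1, Gabre and Gabbr1 are lower in nearly every IP library than in supernatant, while Gad1 overlaps between fractions and is highest in adult IP.

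Levels per kilobase of exon placed Gad1 first in both fractions, at 122 ± 48.8 CPM per kb in the IP and 96.5 ± 19.5 in the supernatant (SD, n = 23). Gad2 (71.3 ± 32.2 in the IP) and Abat (58.6 ± 22.6) followed, with SDs over all 23 libraries that overlapped between these 3 neighbours. Within single IP libraries, however, Gad1 per kb was always above Gad2, by at least 1.24 times. Next in the IP came Gphn at 16.5, Gabra5 at 15.5, Slc12a5 at 14.9 and Gabbr1 at 14.8 CPM per kb, also within each other's spread. Gabra5 was thus the GABA-A subunit gene with the highest level in the IP, ahead of Gabrb2 (10.3 ± 3.35) and Gabra3 (9.67 ± 4.79), whose spreads overlapped with it. Slc32a1 was 6th of 25 in the supernatant (22.4 CPM per kb) and 13th in the IP (5.12). At the low end stood Gabrg3 (0.435) and Gabre (0.234).

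Every age difference that passed the test was a higher level in adults. Comparing adult with young mice over both treatments, 11 of 25 genes were higher in the adult IP and 0 were lower, where 8.3% of all 15890 genes tested were called higher and 6.82% lower. In the supernatant 13 were higher and 0 lower, against 18.9% and 17.2% of 16286 genes. No gene with a lower adult value had an unadjusted p below 0.05 in either fraction, and DESeq2 and limma-voom also called 0 lower. The median log2 change was 0.70 in the IP (0.46 without adult vehicle replicate 2) and 0.27 in the supernatant, and 0.0026 and 0.016 over all genes. The ages overlapped for each of the 25 genes in both fractions. Of all genes, 0.233% lay entirely higher and 0.913% entirely lower in the adult IP, and 1.17% and 2.33% in the adult supernatant.

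All 3 genes of synthesis and vesicle loading rose in the IP. Gad1 went from a median of 718 CPM (379 to 875) in 12 young IP libraries to 1066 CPM (769 to 1887) in 11 adult ones, with overlapping ranges (0.80 ± 0.15, edgeR adjusted p = 0.000513). Slc32a1 went from 9.65 CPM (5.14 to 15.7) to 17.6 CPM (9.84 to 42.0), a rise of 0.93 ± 0.25 (edgeR adjusted p = 0.0108), and Gad2 rose by 0.64 ± 0.17. In the supernatant Gad1 rose by 0.34 ± 0.11 (edgeR adjusted p = 0.0141), while Gad2 (0.27) and Slc32a1 (0.14) were not called.

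In the supernatant 7 of 11 GABA-A subunit genes rose, among them all 4 alpha subunits. Gabra3 went from a median of 29.0 CPM (21.7 to 42.0) to 48.3 CPM (39.4 to 58.0), so that the ages overlapped only at the edge (0.63 ± 0.09, edgeR adjusted p = 1.28e-05). Gabra2 rose by 0.57, Gabra5 by 0.37, Gabra4 by 0.34, the beta subunit Gabrb1 by 0.27, the gamma subunit Gabrg1 by 0.64 and the theta subunit Gabrq by 0.75.

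In the IP 4 of the 11 subunits rose: Gabra3 (0.87 ± 0.21), Gabrb1 (0.70 ± 0.17), Gabrg1 (0.83 ± 0.21) and Gabrq (1.60 ± 0.54, edgeR adjusted p = 0.0445). Gabrq went from a median of 2.79 CPM (0.0660 to 10.1) to 8.77 CPM (2.63 to 23.1), and its call was lost in 14 of 23 fits that left out 1 library, with 1.31 as the lowest value, without adult vehicle replicate 2. Gabra5 and Gabra4 stood at 0.077 and -0.0016 in the IP, with SE of 0.15 and 0.24. The other subunits were not called in either fraction.

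Both GABA-B subunits rose in both fractions. Gabbr2 gained more, by 0.82 ± 0.26 in the IP and 0.65 ± 0.09 in the supernatant, against 0.35 ± 0.10 and 0.22 ± 0.07 for Gabbr1. Gabbr2 went from a median of 32.4 CPM (24.9 to 42.2) to 49.2 CPM (36.1 to 64.9) in the supernatant. The exporter Slc12a5 rose by 0.71 ± 0.16 in the IP (median 78.8 to 117 CPM, edgeR adjusted p = 0.00283) and by 0.48 ± 0.08 in the supernatant (median 151 to 221 CPM, edgeR adjusted p = 0.000109), with overlapping ranges in both. The importer Slc12a2 was called in neither, at 0.71 ± 0.47 and 0.18 ± 0.12.

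The transporter Slc6a11 (0.57) and the glutamine carrier Slc38a1 (0.34) rose in the supernatant and were not called in the IP. Gphn rose in the IP (0.48 ± 0.16, edgeR adjusted p = 0.0408) and stood at -0.086 in the supernatant. The IP calls of Gabbr2 and Gphn were each lost in 8 of 23 fits that left out 1 library, with adjusted p up to 0.0871 and 0.0963. Adult vehicle replicate 2, adult DHT replicate 2, young vehicle replicate 6 and young DHT replicates 5 and 6 did so for both genes. Young vehicle 4, adult DHT 1 and adult vehicle 3 did so for Gabbr2, and young vehicle 3, adult vehicle 1 and adult DHT 3 for Gphn. Of the called genes, 8 were shared by the fractions, which is 72.7% of the IP calls and 61.5% of the supernatant calls. The same overlap over all genes was not counted, so whether these shares are high for this list cannot be said. Of the 34 further pathway genes, 6 rose and 1 fell in the IP and 10 rose and 3 fell in the supernatant. Ubqln1 (0.79) and Nsf (0.74) led in the IP, and the glutaminase gene Gls2 (0.39) and the GABA receptor rho subunit gene Gabrr2 (1.20) in the supernatant.

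**Figure D3:**
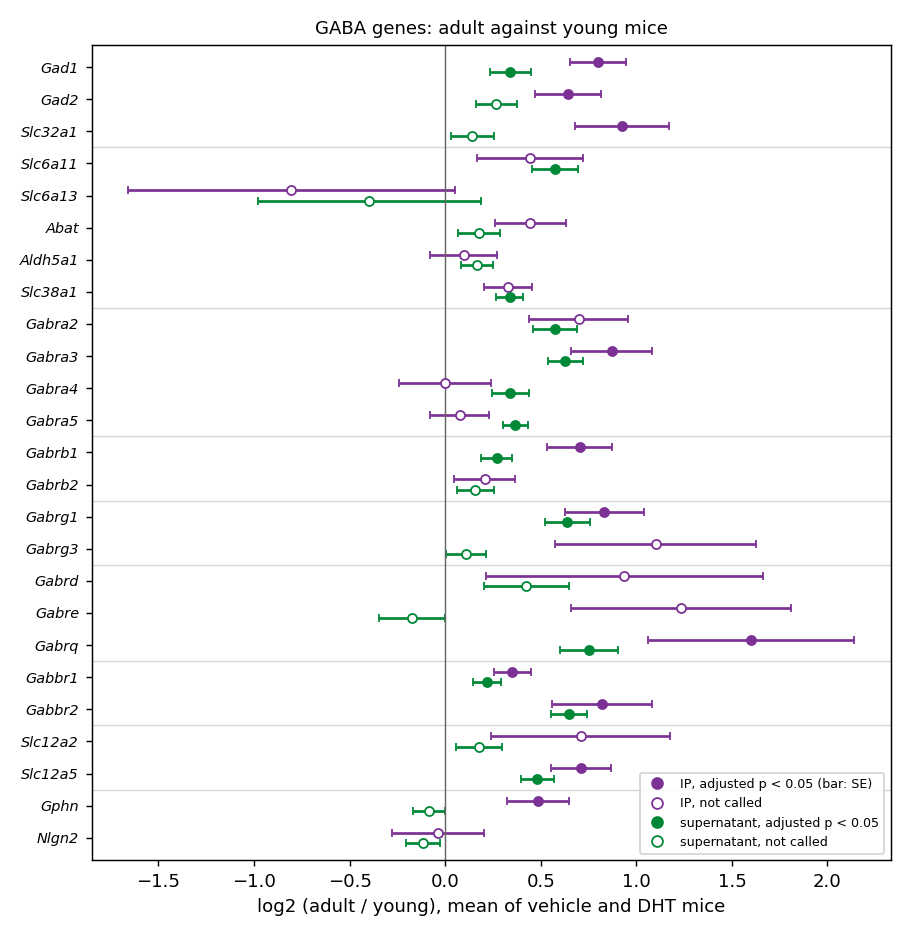
Log2 change from young to adult of each of the 25 genes in the IP (purple) and the supernatant (green), bars are SE and filled points have an edgeR adjusted p below 0.05. All filled points lie to the right of 0, from 0.22 for Gabbr1 in the supernatant to 1.60 for Gabrq in the IP.

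Cell type markers moved with age as well. Oligodendrocyte markers fell in 7 of 7 cases in the supernatant (median -1.08) and in 6 of 7 in the IP (median -1.16). Their summed level went from group medians of 5121 to 5385 CPM in young supernatant to 2429 to 2618 CPM in adult supernatant. Of the transcription factors of GABA neurons, 0 rose and 1 of 7 fell in the supernatant and 2 of 7 fell in the IP. Of 8 astrocyte markers, 1 was higher and 1 lower in the supernatant, and 2 were lower and 0 higher in the IP. Their summed IP medians were 501 and 491 CPM in young and 269 and 343 CPM in adult vehicle and DHT mice. Gnrh1 changed by 0.99 in the IP (edgeR adjusted p = 0.0524). The part of these shifts in the age differences was not tested.

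The last 10 sample numbers in the labels all belong to young libraries. Leaving them out reduced the IP calls from 11 to 4 (Gad1, Gabrg1, Gabbr1 and Slc12a5), and a term for them reduced the calls to 7. The share of all genes called higher was 4.85% without them and 6.02% with the term. In the supernatant Gad1 and Gabbr1 lost their calls without those libraries while Gphn became lower (-0.23, edgeR adjusted p = 0.00846), and the other 11 kept theirs. Within 1 treatment the IP gave 1 call in vehicle mice (Gabra3) and 3 in DHT mice (Gad1, Gad2 and Slc12a5), and the supernatant gave 13 and 6. The shares of all genes called higher were 2.04% and 3.8% in the IP and 10.1% and 9.47% in the supernatant.

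**Figure D4:**
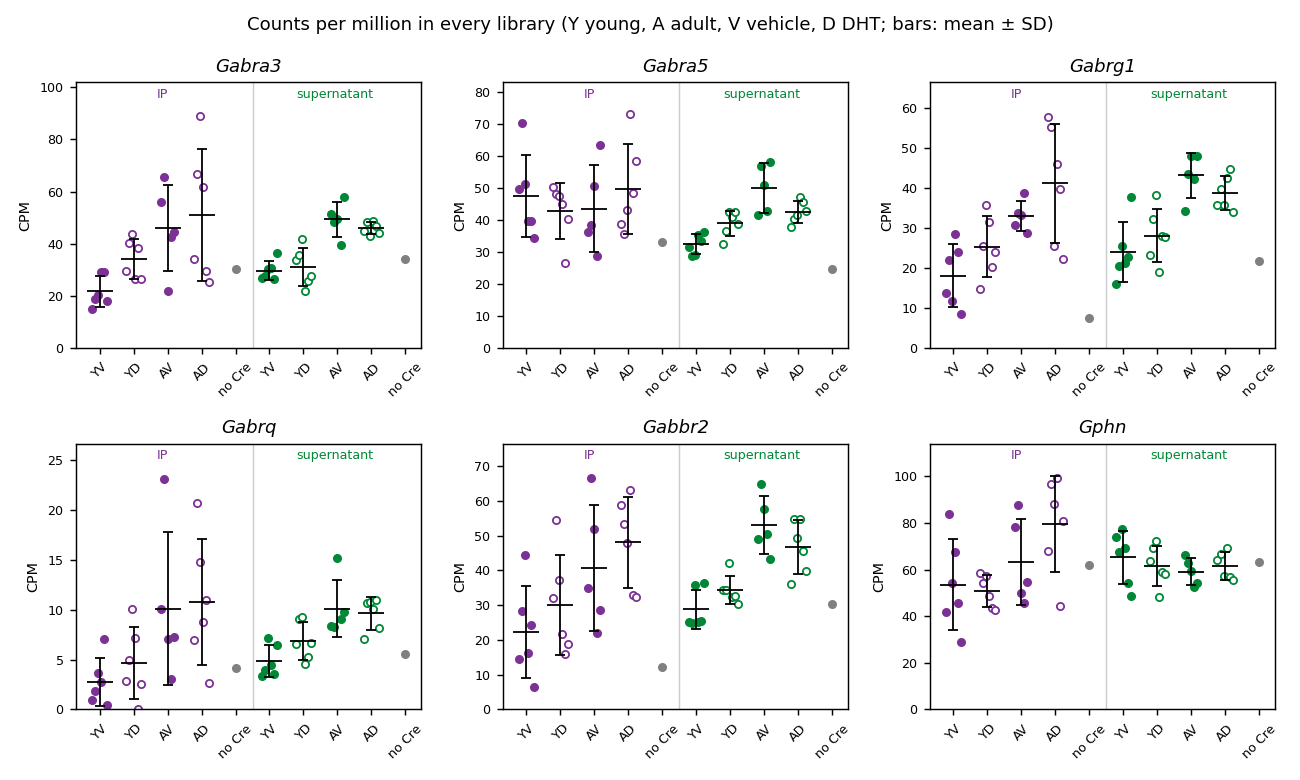
CPM of 6 GABA genes in each library, by group (filled for vehicle, open for DHT, grey for the pair without Cre, black bars mean ± SD). Mean levels of both adult groups sit above those of both young groups for Gabra3, Gabrg1, Gabrq and Gabbr2 in both fractions, and the IP libraries spread more widely than those of the supernatant.

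Whether the IP and the supernatant differed in their change with age was tested as an interaction. Gphn was the 1 gene called, with an IP to supernatant log2 difference that was 0.59 ± 0.17 larger in adults (edgeR adjusted p = 0.0388), where 1.85% of all genes were called in that direction and 2.67% in the other. Its median went from 51.5 to 78.4 CPM in the IP and from 65.7 to 59.4 CPM in the supernatant. The call was lost in 28 of 46 fits without 1 library, with 0.49 as the lowest value, without adult vehicle IP replicate 2, and an adjusted p from 0.011 to 0.111 over all 46, and also without the last 10 sample numbers. Gabre (1.42 ± 0.45, edgeR adjusted p = 0.0568) and Slc32a1 (0.79 ± 0.25, edgeR adjusted p = 0.0612) were not called. The block called Slc32a1 (0.73, edgeR adjusted p = 0.0367).

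Prenatal DHT changed none of the 25 genes at an adjusted p below 0.05 in any of the 4 comparisons. This was also the count by DESeq2 and limma-voom for the 25 genes. By edgeR 0% of all genes were called in each direction apart from 0.00629% lower in adult IP, where DESeq2 called 112 genes higher and 39 lower. Without the last 10 sample numbers edgeR called 37 genes higher and 2 lower in young supernatant, and 0 of the 25. At an unadjusted p below 0.05 there were 1 of the 25 genes in young IP, 2 in adult IP, 6 in young supernatant and 1 in adult supernatant. Of all 15890 genes tested in the IP, 239 (young) and 1318 (adult) were below it. Of all 16286 tested in the supernatant, 747 (young) and 338 (adult) were. The treatments overlapped for each of the 25 genes in all 4 comparisons. Of all genes, 0.0378% lay entirely higher and 0.113% entirely lower with DHT in young IP, 0.264% and 0.164% in adult IP, 0.086% and 0.043% in young supernatant, and 0.111% and 0.0982% in adult supernatant.

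In young IP the smallest p belonged to Gabra3. It ran from 15.03 to 29.3 CPM (median 19.6) in 6 vehicle libraries and from 26.4 to 43.7 CPM (median 34.0) in 6 DHT libraries, with overlap between 26.4 and 29.3 CPM. The log2 difference was 0.65 ± 0.29 (edgeR adjusted p = 1.00). In adult IP it was Gad2, at 428, 739, 319, 297 and 248 CPM in the vehicle libraries and 385 to 977 CPM (median 528) in DHT libraries. The log2 difference was 0.57 ± 0.25 (edgeR adjusted p = 0.537), and the groups overlapped. It was 0.37 without DHT replicate 2 and 0.92 without vehicle replicate 2.

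In young supernatant the smallest p was that of Gabrg3, which ran from 3.50 to 6.17 CPM (median 4.54) in vehicle and from 4.90 to 8.34 CPM (median 7.21) in DHT libraries. Its log2 difference was 0.56 ± 0.15 (edgeR adjusted p = 0.976). In adult supernatant Gabra5 was at 41.7, 56.9, 50.9, 42.8 and 58.1 CPM in vehicle libraries and at 38.0 to 47.4 CPM (median 42.2) in DHT libraries (-0.23 ± 0.09, edgeR adjusted p = 1.00).

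The signs of the GABA-A subunit genes were alike within each supernatant comparison. Of all 25 genes, 19 were higher with DHT in young supernatant (median 0.14) and 9 in adult supernatant (median -0.060). Among the subunits in young supernatant 11 of 11 were higher with DHT (median 0.24), where 48.1% of all genes were higher. In adult supernatant 0 of 11 were higher (median -0.10), where 49.9% of all genes were. Genes are not independent replicates, and leaving out 1 library gave 8 to 11 in the young and 0 to 2 in the adult supernatant. Without the last 10 sample numbers the young count stayed at 11 with a median of 0.39. In the IP 8 of 11 were higher at each age, where 46.9% (young) and 50.1% (adult) of all genes were. The difference in DHT effect between the ages was called for 0 of 25 genes in either fraction, also by DESeq2 and limma-voom. At an unadjusted p below 0.05 there were 857 of all 15890 genes in the IP and 888 of all 16286 in the supernatant. Of the 25 genes, 0 in the IP and 6 in the supernatant were below it. The smallest p was that of Gad2 in the IP (0.66 ± 0.35, edgeR adjusted p = 0.935, and 0.46 to 1.02 without adult DHT or adult vehicle replicate 2) and Gabra5 in the supernatant (-0.47 ± 0.13, edgeR adjusted p = 0.875).

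**Figure D5:**
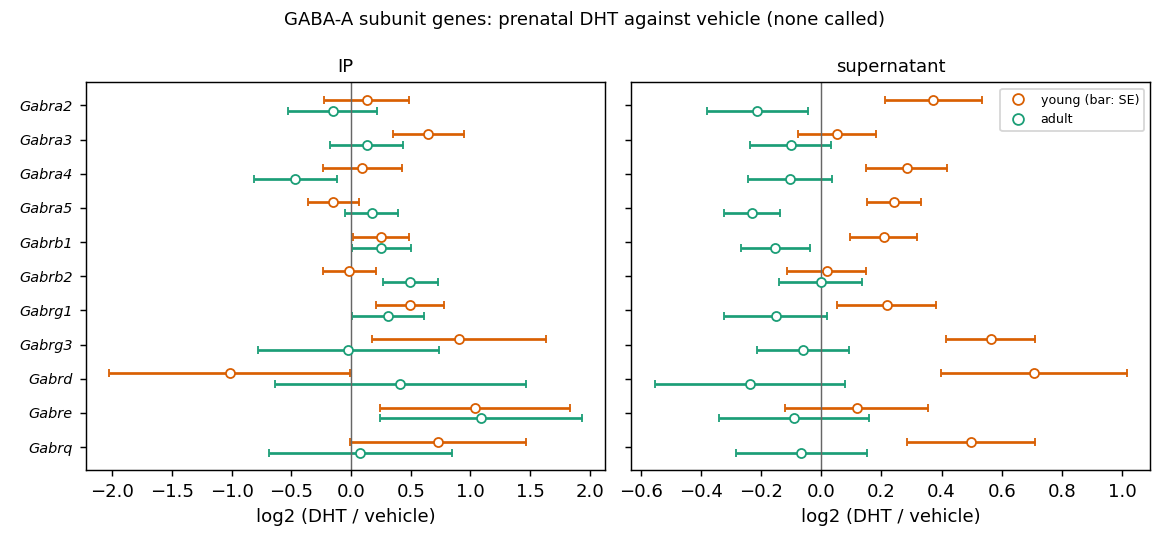
Log2 difference of DHT from vehicle for 11 GABA-A subunit genes at both ages, in the IP (left) and the supernatant (right, on a narrower axis), bars are SE. None was called. In the supernatant all young points lie right of 0 and no adult point does.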

How the data were processed

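The authors deposited estimated counts per gene for 48 libraries, of which 98.5% of values were exactly whole, and the rest were rounded. Build mm10 and the tools DESeq2 1.14.1, HTSeq 0.6.1, Cuffdiff 2.1.1, Cufflinks, Bowtie2 2.2.1, TopHat2 2.0.13 and FastQC 0.11.3 were named, per the submitters' processing notes. The tool and annotation behind the counts were not given in the sources used here. The kit was SMARTer v4 on poly(A) RNA, per the labels' protocols.

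Counts were tested in R 4.3.3 with edgeR 4.0.16 (filterByExpr, minimum count 10 and minimum total 15, TMM, quasi-likelihood F test, two-sided, robust) and Benjamini-Hochberg adjustment over all genes, with calls below 0.05. All 46 libraries entered 1 fit for the fraction contrast and its change with age, and the 23 libraries of each fraction entered their own fit for age and treatment. Log2 fold changes carry SE. CPM is scaled to the library total, and per kb uses the union of GENCODE M21 exons (GRCm38). The tests were checked on simulated counts.

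The rule for named genes took all 25 in the fraction comparison, those called elsewhere or else the smallest p, and at most 2 further pathway genes per direction. The members and lists were chosen with earlier results of these data known. A depleted supernatant is what an IP left, so a shared number within a condition was taken to pair them, though the labels do not say so in words: deviations of 18 of 23 pairs correlated above 0.1 (median 0.17, range -0.07 to 0.42). The own number correlated best in 19 of 23 pairs. It did not for young DHT 4 and 5 and young vehicle 5 and 6, all among the last 10 sample numbers. The block used these pairs too. Within a fraction, numbers did not pair libraries (median 0.0093 in IP, 0.059 in supernatant). The alternatives were DESeq2 1.42.0, RLE factors, limma 3.58.1 voom with sample weights, other filters, fewer groups, the block, the last 10 sample numbers, single conditions and leaving out each library. The DHT comparisons were also fitted on their 2 groups alone. For the other comparisons all groups already entered the fit.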

Additional observations from a re-analysis of the deposited data

Results flagged for a closer look

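Of 200 groups of libraries checked (25 genes in 8 groups of 5 or 6), 14 (7%) held a library set apart from the rest by a gap large against the group's range. The cutoff gives about 1 in 20 only for independent values with a normal spread. The CPM values were not tested for that, so the 7% cannot be set against chance. The library apart was the highest in 12 and the lowest in 2. Replicate 2 of adult vehicle IP gave 4 of them, at 1672 CPM for Gad1, 42.0 CPM for Slc32a1, 32.8 CPM for Slc6a11 and 111 CPM for Gabrb1, and its Gnrh1 level, 1951 CPM, was the lowest of its group. Gnrh1 was lower still in adult DHT IP replicate 2, at 664 CPM, the lowest of the IP libraries with Cre. It ran up to 16067 CPM in adult vehicle IP and 13177 CPM in adult DHT IP. What part this spread has in the adult IP results was not tested. Replicate 4 of adult DHT mice was apart for Slc6a13 in both fractions, at 42.1 CPM (IP) and 47.2 CPM (supernatant), and Slc6a13 reached 11.6 CPM in young DHT IP replicate 3.

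In young vehicle IP the libraries apart were Slc38a1 at 91.4 CPM, Gabra2 at 34.9 CPM and Slc12a5 at 130 CPM. In supernatant they were Aldh5a1 at 39.9 CPM (adult vehicle, lowest), Gabre at 2.24 CPM (adult DHT, lowest), Gabrq at 15.2 CPM (adult vehicle) and Gabbr2 at 42.2 CPM (young DHT). The IP to supernatant difference of Gphn changed with age by 0.59 on the log2 scale, by a test of the difference itself. That call was lost in 28 of the 46 fits that left out 1 library.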

How the results depend on the processing

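DESeq2 raised the calls for the change of the fraction difference with age from 1 to 3. Over all genes it called 112 higher and 39 lower with DHT in adult IP, where edgeR called 0 and 1, and none of the 25 was among them. In the fraction comparison limma-voom called 6360 of all genes lower and the block 5867, in place of 3619. limma-voom gave 16 lower calls between fractions in place of 10 and 0 for the interaction, and so did the 1 CPM filter for the interaction. With the replicate number as a block (pairing IP with supernatant), the interaction had 2 calls. A term for the last 10 sample numbers gave 2 there, 7 higher in adult IP and 1 lower in adult supernatant, and leaving those libraries out gave 0, 4 and 1. Calls between fractions in single conditions were 1 higher and 5 lower in young vehicle, 0 and 6 in young DHT, 1 and 6 in adult vehicle, and 1 and 4 in adult DHT mice. Of all genes, 10.7% to 12.8% were called higher and 9.21% to 11.2% lower there. With no filter on low counts Abat and Gabrb2 lost their calls. Adult against young gave 1 call in vehicle IP, 3 in DHT IP and 6 in DHT supernatant.

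Leaving out 1 library gave 1 to 2 higher and 9 to 12 lower calls between fractions, 0 to 3 for the interaction, 8 to 13 in adult IP, and 13 to 15 higher and 0 to 1 lower in adult supernatant, the 1 being Slc6a13 (-1.38) without adult DHT replicate 4.

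Signs of single genes between fractions turned as follows. Single conditions turned Gad2 (0.17 in adult DHT), Slc6a13 (0.057 in young vehicle), Gabra3 (0.17 in young DHT, 0.0074 in adult vehicle, 0.22 in adult DHT), Gabra4 (-0.32 in adult DHT), Gabra5 (-0.10 in adult vehicle), Gabrb1 (-0.22 in young vehicle, -0.16 in young DHT), Gabrb2 (0.035 in adult DHT), Gabrg1 (0.16 in adult DHT), Gabrg3 (0.23 in adult vehicle, 0.28 in adult DHT), Gabrd (0.28 in young vehicle, 0.25 in adult DHT), Gabrq (0.10 in adult vehicle, 0.24 in adult DHT), Gabbr2 (0.11 in adult DHT), Slc12a2 (0.22 in adult vehicle) and Gphn (-0.30 in young vehicle, -0.25 in young DHT). Other settings turned Gabra3 (0.0060 without a filter), Gabra4 (-0.0051 with voom, -0.050 with the block), Gabrb1 (-0.053 with voom, -0.0019 with the block) and Gphn (-0.030 with voom, -0.0022 with the 1 CPM filter, -0.0068 with the block, -0.015 without the last 10 sample numbers). Leaving out 1 library moved Gabra3 from -0.10 to 0.022, Gabra4 from -0.056 to 0.067, Gabrb1 from -0.086 to 0.058 and Gphn from -0.059 to 0.043. The cause of these changes was not tested. Between the fractions the SE was widest for Slc6a13 (0.51), Gabrd (0.38), Gabrq (0.28) and Gabrg3 (0.26), whose IP medians ran from 3.23 to 6.92 CPM, and the single pair without Cre limits what can be said of capture background.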
